A study of Citrus sinensis with 6 samples.

Results

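On the Citrus GeneChip, 5 probe sets that stand for genes of abscisic acid (ABA) synthesis, breakdown and response were followed through the self-pruning of sweet orange shoot tips. They are 5 of the 30395 probe sets on the array, and were taken by their identifiers. Cit.13915.1.S1_at was annotated as a 9-cis-epoxycarotenoid dioxygenase (NCED). Cit.13424.1.S1_at was annotated as an ABA 8′-hydroxylase 1-like protein and Cit.13287.1.S1_s_at as ABA 8′-hydroxylase 2. Cit.8654.1.S1_x_at was annotated as an ABA stress ripening-related protein, and an ABA stress ripening-like protein is represented by Cit.8661.1.S1_x_at. All 5 came from genes that had been selected for their change between these same stages. Their signals and differences are therefore a description with a standard error (SE), and no test was made on them.

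Self-pruning is the shedding of the tip of a growing shoot at an abscission zone. Tips of spring shoots with this zone were cut from adult field-grown trees of 'Cara Cara' navel orange (Citrus sinensis) at stage 1 (3 days before self-pruning), at stage 2 (its start) and at stage 3 (7 days after it). Each stage has 2 arrays, labelled as biological replicates of untreated plants. The methods describe 3 groups of trees with 3 trees in each, and which trees a given array holds is not stated in the sources used here. The labels call the tissue shoot meristems, whereas the methods describe whole tips, so in this bulk tissue fewer cells of a type and less RNA per cell cannot be told apart.

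ABA is made from carotenoids. NCED cuts 9-cis-epoxycarotenoids in the plastid, which is widely regarded as the rate-limiting step, and ABA 8′-hydroxylases (CYP707A cytochromes P450) start the main route of its breakdown. In cells with enough ABA, receptors inhibit type 2C protein phosphatases, SnRK2 kinases become active and transcription factors switch on response genes. ABA is best known for seed maturation, bud dormancy and drought responses, and it has long been linked with organ abscission.

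The deposited signals are log2 values made by robust multi-array average (RMA), and the 6 arrays had medians of 7.30 to 7.39 over the 30171 citrus probe sets. The 3 KNOTTED-like probe sets and the 2 named cyclin B, which mark meristem and dividing cells, read above the highest reporter control (identifiers that begin with RPTR) on every array, as did 6 of 8 chlorophyll a/b-binding probe sets. WUSCHEL and histone H4 were not found by name. The 60 reporter controls read at most 5.67, but 23 control probe sets whose identifiers begin with Random had a median of 7.90. These Random controls ranged from 7.07 to 10.49. A signal between 5.67 and 10.49 thus cannot be called detected or absent, and the Random median is no limit of detection. Among the members, only the stress ripening probe sets at stage 3 read above 10.49. The true size of differences that involve lower signals is uncertain, also where this is not repeated below. Between stage means, the Random controls differed by -0.11 to 0.22 and the reporters by -0.74 to 0.35. For actin, the log2 signal at the 3′ end minus that at the 5′ end was 1.62 and 1.66 on the arrays of stage 3, against 1.87 to 1.94 on those of stages 1 and 2. The part of this RNA quality measure in the stage 3 differences was not tested.

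NCED, the synthesis enzyme, was lowest when self-pruning began and highest 7 days after it. Its log2 signal was 7.26 and 7.31 on the 2 arrays of stage 1, 6.28 and 6.34 at stage 2, and 9.23 and 9.26 at stage 3. No array of a stage came near those of another. The mean at stage 2 was 6.31, against 7.29 at stage 1, a difference of -0.98 ± 0.036 (SE from limma over all 6 arrays). At stage 3 the mean was 9.24, which was 1.96 ± 0.036 above stage 1 and 2.94 ± 0.036 above stage 2. These are 3.88-fold and 7.66-fold, so that the stage 3 signal lies just under 4-fold relative to stage 1. The signals of stages 1 and 2 lie between the highest reporter and the median of the Random controls, so the true size of these differences is uncertain.

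The ABA 8′-hydroxylase 1-like probe set, for an enzyme that inactivates ABA, had the same order of stages as NCED. It read 6.61 and 6.72 at stage 1, 5.44 and 5.27 at stage 2, and 8.98 and 8.91 at stage 3. Stage 2 was 1.31 log2 units below stage 1 (-1.31 ± 0.074). Stage 3 was 2.28 ± 0.074 above stage 1 and 3.59 ± 0.074 above stage 2, which is 12.05-fold. Both stage 2 signals lie within the range of the reporter controls, and those of stage 1 between the highest reporter and the median of the Random controls. The true size of these differences is therefore uncertain.

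ABA 8′-hydroxylase 2, which catalyses the same reaction, had the opposite order. Its signals were 8.73 and 8.80 at stage 1, 8.97 and 9.02 at stage 2, and 6.17 and 6.27 at stage 3. Stage 2 was slightly higher than stage 1, by 0.23 ± 0.047. Stage 3 lay below both earlier stages, with a difference of -2.54 ± 0.047 (5.83-fold) relative to stage 1 and of -2.77 ± 0.047 (6.83-fold) relative to stage 2. The stage 3 signals lie between the highest reporter and the median of the Random controls, so the true size of these falls is uncertain. The 2 breakdown genes thus moved apart within the same RNA samples. The signal of hydroxylase 1-like minus that of hydroxylase 2 on 1 array was -2.12 and -2.07 at stage 1, -3.53 and -3.74 at stage 2, and 2.81 and 2.64 at stage 3.

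Both ABA stress ripening probe sets, which stand for small hydrophilic proteins that accumulate with ABA, drought and fruit ripening, were higher at each later stage. Cit.8654.1.S1_x_at read 9.89 and 9.86 at stage 1, 10.41 and 10.45 at stage 2, and 12.96 and 12.95 at stage 3. Cit.8661.1.S1_x_at read 7.68 and 7.59 at stage 1, 8.21 and 8.18 at stage 2, and 10.69 and 10.75 at stage 3. Most of the difference lay between stage 2 and stage 3. For Cit.8654.1.S1_x_at, stage 2 was 0.55 ± 0.029 above stage 1, and stage 3 was 3.08 ± 0.029 above stage 1 (8.45-fold) and 2.52 ± 0.029 above stage 2. For Cit.8661.1.S1_x_at the same differences were 0.56, 3.09 and 2.52, each ± 0.043. The gap between the 2 probe sets was 2.20 to 2.27 on all 6 arrays and changed by at most 0.0064 in size between stage means. Their sequences have the same best protein match, and the suffix x_at marks probe sets with probes that can bind other transcripts, so whether they measure 2 genes or 1 cannot be told apart here.

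**Figure D1:**
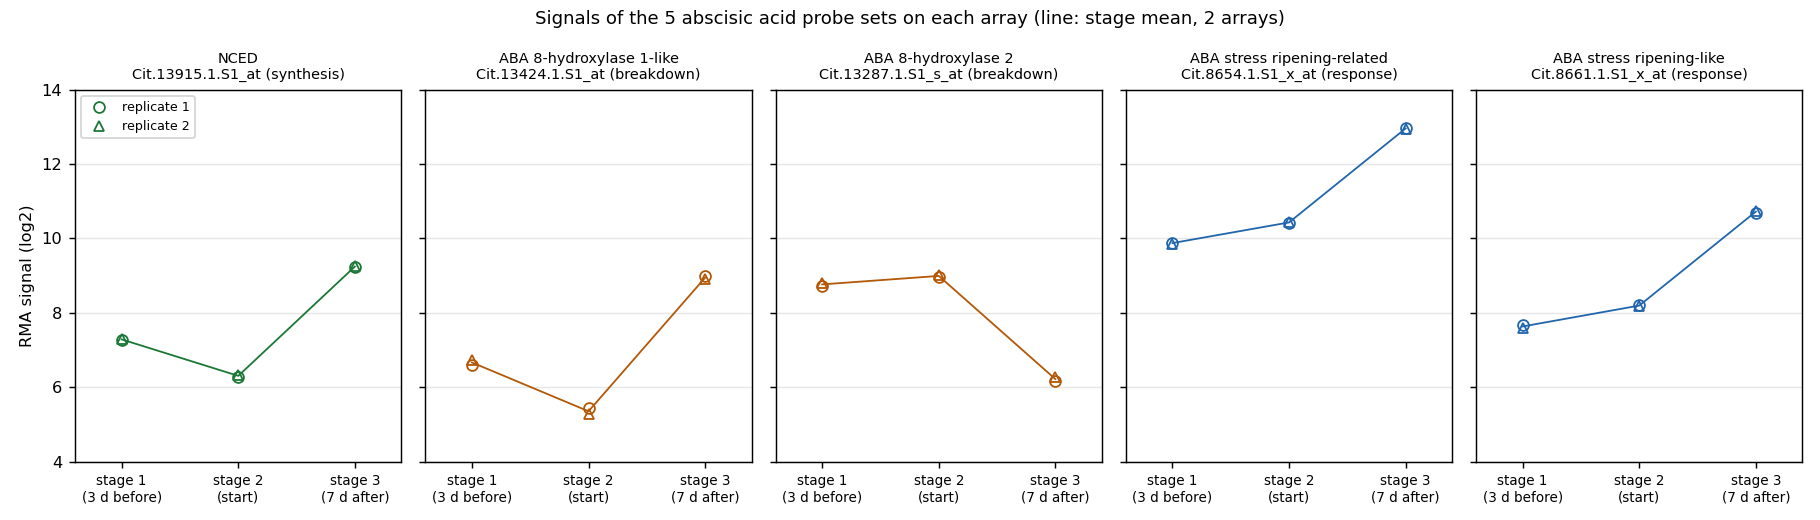
Log2 RMA signals (vertical axis) of the 5 ABA probe sets at the 3 stages (horizontal axis); circles and triangles are the arrays of replicates 1 and 2, and lines join stage means. NCED and hydroxylase 1-like dip at stage 2 and are highest at stage 3 (means 9.24 and 8.95), hydroxylase 2 is lowest at stage 3 (6.22), and both stress ripening probe sets reach 12.96 and 10.72.

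The arrays of any pair of stages did not overlap for any of the 5 probe sets. This also held for 70.6% of all citrus probe sets between stages 2 and 1, for 81.9% between stages 3 and 1 and for 81.8% between stages 3 and 2. The absence of overlap is therefore common on these arrays and is not a feature of the ABA genes. In size, whatever its sign, the stage 3 minus stage 1 difference exceeded that of 96.4% of citrus probe sets for NCED, 97.6% for hydroxylase 1-like, 98.2% for hydroxylase 2 and 99.1% for each stress ripening probe set. These places in the distribution follow from how the genes were selected.

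**Figure D2:**
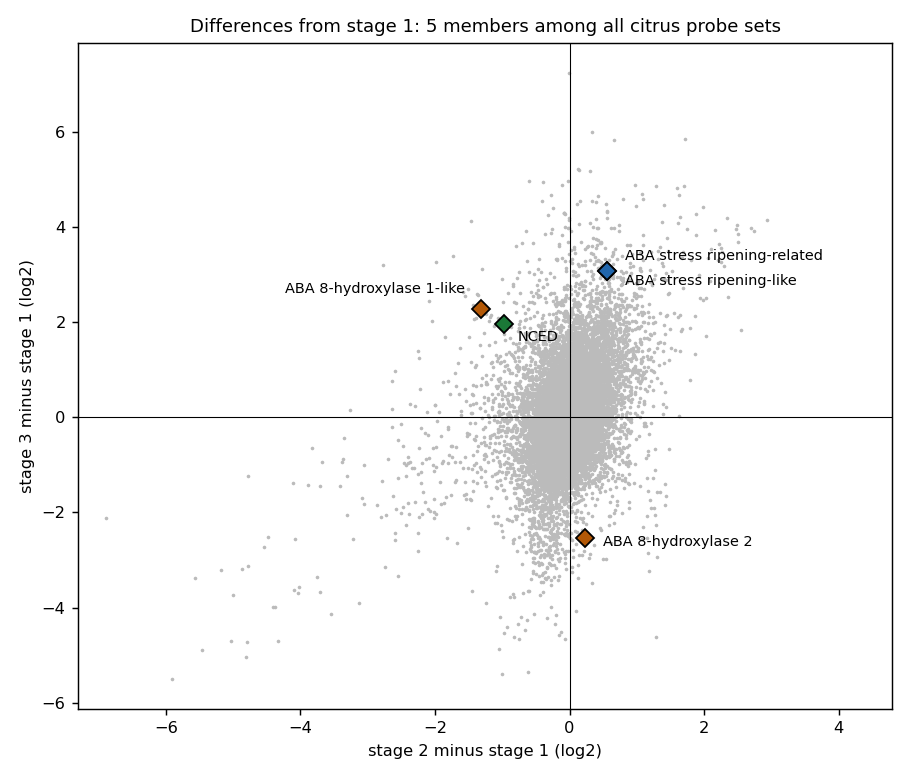
Stage 3 minus stage 1 (vertical axis, log2) against stage 2 minus stage 1 (horizontal axis, log2) for all 30171 citrus probe sets (grey) and the 5 ABA probe sets (diamonds; green synthesis, orange breakdown, blue response). NCED (-0.98, 1.96) and hydroxylase 1-like (-1.31, 2.28) lie in the upper left, the coinciding stress ripening probe sets (0.55, 3.08 and 0.56, 3.09) in the upper right and hydroxylase 2 (0.23, -2.54) at the bottom.

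Synthesis was then set against breakdown by subtracting, on each array, the log2 signal of a breakdown enzyme from that of NCED. Levels of different probe sets are not comparable, and only the change of this difference between stages has a meaning. Against hydroxylase 1-like, NCED gave 0.65 and 0.59 at stage 1, 0.84 and 1.07 at stage 2, and 0.25 and 0.35 at stage 3. The difference was 0.33 ± 0.11 higher at stage 2 than at stage 1, and at stage 3 it changed by -0.32 ± 0.11 relative to stage 1 and by -0.65 ± 0.11 relative to stage 2 (SE from least squares). The pair thus kept nearly in step, since each gene moved by 0.98 to 3.59 log2 units while their difference shifted by no more than 0.65. Without replicate 2 of stage 2, the stage 2 minus stage 1 value was 0.22, and this is also the stage at which hydroxylase 1-like reads like a reporter control.

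Against hydroxylase 2 the difference shifted far more between stages. NCED minus hydroxylase 2 was -1.47 and -1.49 at stage 1, -2.69 and -2.68 at stage 2, and 3.05 and 2.99 at stage 3. Stage 2 differed from stage 1 by -1.21 ± 0.028, towards breakdown, which is 2.31-fold. Stage 3 differed from stage 1 by 4.50 ± 0.028 (22.7-fold) and from stage 2 by 5.71 ± 0.028 (52.3-fold), towards synthesis. NCED at stages 1 and 2 and hydroxylase 2 at stage 3 read between the highest reporter and the median of the Random controls. The true size of these changes is therefore uncertain. The change of the difference from stage 1 to stage 3 therefore depended on which hydroxylase was used: it was -0.32 ± 0.11 with the first and 4.50 ± 0.028 with the second. NCED and hydroxylase 1-like at stage 1 also read between the highest reporter and the median of the Random controls. The reporter controls alone differed by -0.48 to 0.31 between these stages. The direction of the small change with hydroxylase 1-like is therefore uncertain. These are transcript signals, and neither ABA nor enzyme activity is in these data.

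ABA can also be stored as a glucose ester. The only probe set named as an ABA glucosyltransferase, Cit.33261.1.S1_at, is not one of the 5 and was compared with NCED after its values had been seen. It read 5.60 and 5.53 at stage 1, 4.91 and 4.90 at stage 2, and 7.41 and 7.28 at stage 3. It fell at stage 2 relative to stage 1 (-0.66 ± 0.056, adjusted p = 0.0015) and rose at stage 3 relative to stage 1 (1.78 ± 0.056, adjusted p = 1.8e-05) and to stage 2 (2.44 ± 0.056, adjusted p = 1.0e-05; limma, Benjamini-Hochberg over 30171 probe sets). Its order of stages was that of NCED and hydroxylase 1-like. NCED minus this enzyme changed by -0.32 ± 0.087 at stage 2 and by 0.18 ± 0.087 at stage 3, each relative to stage 1. The change from stage 2 to stage 3 was 0.50 ± 0.087 for NCED minus this enzyme. Its signals at stage 2 and on replicate 1 of stage 1 are below the highest reporter of the array, and on replicate 2 of stage 1 it is just above (5.53, against 5.49).

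**Figure D3:**
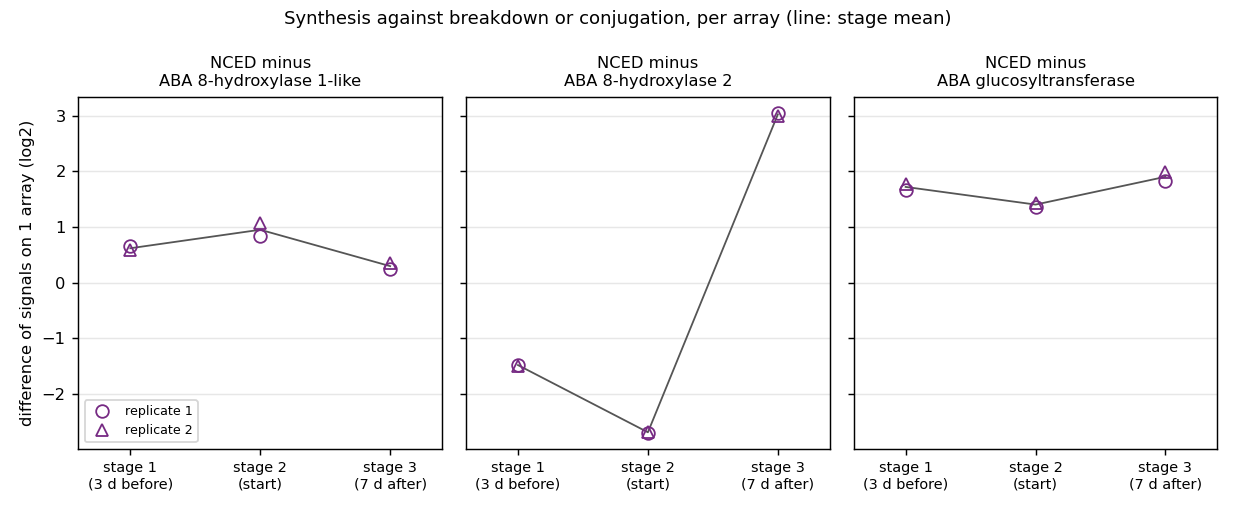
Log2 signal of NCED minus that of each of 3 ABA-inactivating enzymes on the same array (vertical axis) at the 3 stages (horizontal axis); circles and triangles are replicates 1 and 2, and lines join stage means. The difference stays between 0.25 and 1.07 against hydroxylase 1-like and between 1.37 and 1.98 against the glucosyltransferase, but moves between -2.69 and 3.05 against hydroxylase 2.

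Other probe sets of the pathway were searched for by the first letters of their array names, since the median name stops after 7 letters. The 9 lists held 91 probe sets besides the 5, from 81 clusters of expressed sequence tags (ESTs). No probe set was found by name for receptors, type 2C phosphatases, transporters or the last steps of synthesis. At an adjusted p under 0.05 (limma), 23 of the 91 rose and 25 fell at stage 2 relative to stage 1, against 20.2% and 21.5% of all citrus probe sets (41.7% in either direction). At stage 3, 28 rose and 42 fell relative to stage 1, where the whole array has 29.9% and 35.9% (65.8% in either direction). Relative to stage 2, 29 rose and 33 fell at stage 3, beside 29.1% and 36.5% (65.6% in either direction). The called share of the 91 in either direction was 52.7% at stage 2 relative to stage 1, 76.9% at stage 3 relative to stage 1 and 68.1% at stage 3 relative to stage 2, which is above the array's share each time, and whether the lists differ from the array was not tested. The median differences of the 91 were -0.03, -0.13 and 0.00, against 0.01, -0.04 and -0.05 over all probe sets. Of the 91, 12 had been selected by the study for their change on these arrays, and are no independent evidence of a direction or of a called share. Among the other 79, the called shares in the same 3 comparisons were 49.4%, 73.4% and 63.3%. The last of these is below the array's 65.6%.

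Most probe sets whose shortened names fit enzymes that convert the carotenoids from which ABA is made were lower at stage 3 than at stage 1. The names of these 12 probe sets, from 10 EST clusters, begin with zeaxanthin epo, violaxa or beta-car, and do not all give the enzyme. Of the 12, 2 rose (16.7%, against 29.9% of the array) and 9 fell (75.0%, against 35.9%). At stage 2 relative to stage 1, 5 rose (41.7%, against 20.2%) and 3 fell (25%, against 21.5%). Their median stage 3 minus stage 1 difference was -0.48, against -0.04 for all probe sets. The list does not run in 1 direction: zeaxanthin epoxidase makes violaxanthin, whereas violaxanthin de-epoxidase turns violaxanthin back to zeaxanthin, away from ABA. At stage 3 relative to stage 1, the 3 zeaxanthin epoxidase probe sets had 2 rises and 1 fall, the 4 whose names begin with violaxa had 3 falls, and the 5 whose names begin with beta-car had 5 falls. Cit.20251.1.S1_at, whose shortened name, violaxanthin d, is the beginning of violaxanthin de-epoxidase, read 7.22 and 7.23 at stage 3, against 8.28 and 8.30 at stage 1 (-1.06 ± 0.028, adjusted p = 1.1e-05), and its stage 2 signals were 8.78 and 8.74. Zeaxanthin epoxidase Cit.11407.1.S1_at, the only 1 of the 3 above the highest reporter on every array, read 8.04 and 8.07 at stage 3, against 8.81 and 8.95 at stage 1 (-0.82 ± 0.055, adjusted p = 0.00020). Cit.9346.1.S1_at, whose name begins with beta-car, rose at stage 2 relative to stage 1 by 0.74 ± 0.062 (adjusted p = 0.0015), but was above the highest reporter only on the 2 arrays of stage 2. Cit.31010.1.S1_at, also named zeaxanthin epoxidase, rose at stage 3 relative to stage 2 (0.70 ± 0.082, adjusted p = 0.0015). Of the 12 probe sets, 6 were above the highest reporter on every array, and none is among the genes that the study selected.

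Besides the member, 5 probe sets carry the name of an NCED or a carotenoid cleavage dioxygenase, and they did not follow 1 pattern. Cit.8156.1.S1_at, annotated as NCED 4, read 8.10 and 8.07 at stage 1, 9.31 and 9.35 at stage 2, and 10.20 and 10.19 at stage 3. It rose at stage 2 by 1.25 ± 0.028 (adjusted p = 7.4e-05) and at stage 3 by 2.11 ± 0.028 relative to stage 1 (adjusted p = 3.1e-06), so unlike the member it was already high when self-pruning began. It was also selected by the study on these arrays. In Arabidopsis, the protein of this name cleaves carotenoids and is not regarded as a main enzyme of ABA synthesis.

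Cit.17235.1.S1_s_at was closest to the member in its order of stages. Its signals were 6.51 and 6.60 at stage 1, 5.35 (below the highest reporter) and 5.55 at stage 2, and 6.79 and 7.12 at stage 3. It fell at stage 2 (-1.11 ± 0.13, adjusted p = 0.0039) and rose at stage 3 relative to stage 2 (1.51 ± 0.13, adjusted p = 0.00053), but the difference of 0.40 ± 0.13 between stages 3 and 1 did not pass the test (adjusted p = 0.051). Cit.24499.1.S1_at had mean signals of 6.02, 6.32 and 5.77 at stages 1, 2 and 3, with small differences of 0.30 at stage 2 and -0.25 at stage 3 from stage 1. Both calls were lost without either array of stage 1 (adjusted p of 0.089 to 0.13). The stage 2 call was also lost without replicate 1 of stage 2 (adjusted p = 0.11), and the stage 3 call without replicate 1 of stage 3 (adjusted p = 0.11) or with a trend in the prior variance (adjusted p = 0.051). Cit.29734.1.S1_s_at and Cit.32371.1.S1_at read below the highest reporter on every array. The difference of 0.23 at stage 3 for Cit.32371.1.S1_at lost its call without any 1 of the 4 arrays compared (adjusted p of 0.076 to 0.14).

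On the side of the response, 2 further probe sets named for ABA stress ripening proteins rose in all 3 comparisons, as did 7.67% of all citrus probe sets. Neither of the 2 was selected by the study. Cit.30469.1.S1_x_at read 7.36 and 7.27 at stage 3, against 5.82 and 5.86 at stage 1 (1.48 ± 0.041, adjusted p = 1.3e-05), with 6.15 and 6.14 at stage 2. The suffix x_at of this probe set marks probes that can bind other transcripts, so whether it measures a gene apart from the members cannot be told here. Cit.35839.1.S1_at, a dim probe set, read 5.65 and 5.78 at stage 3, against 4.96 and 5.02 at stage 1 (0.72 ± 0.052, adjusted p = 0.00025). It was above the highest reporter only on the 2 arrays of stage 3. All 4 probe sets of the family were therefore higher at stage 3, and the 2 members by about 3 log2 units.

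The kinases in these lists are SAPK3-like proteins, named after a rice kinase of SnRK2, a family with members that pass on ABA or stress signals. All 3 probe sets, from 2 EST clusters, rose in all 3 comparisons, as did 7.67% of all citrus probe sets. Cit.22629.1.S1_s_at read 9.76 and 9.81 at stage 3, against 7.20 and 7.31 at stage 1 (2.53 ± 0.048, adjusted p = 5.4e-06), with 7.92 and 7.91 at stage 2. Cit.13377.1.S1_s_at read 8.45 and 8.48 at stage 3, against 6.05 and 6.21 at stage 1 (2.34 ± 0.062, adjusted p = 1.2e-05). Both were selected by the study on these arrays. A second probe set of the first cluster, Cit.22629.1.S1_at, was not, and it rose by 1.50 ± 0.027 at stage 3 (adjusted p = 5.1e-06). Its shortened array name, putative seri, does not give the kinase, and it is listed through its cluster. The SAPK3-like names come from the study's annotation of its selected genes, so the 3 rises are no independent evidence of a direction.

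A further list holds 9 probe sets named for ABI3, a seed transcription factor of the ABA response, for proteins that interact with it, for ATHB-7 or for a partner of ABF2. The 2 named ABI3 alone were above the highest reporter on no array, and 5 others have names that begin with ABI3-i. Of the 9, 2 fell and 0 rose at stage 2 relative to stage 1 (limma; at an unadjusted p under 0.05, 3 fell and 0 rose), which is 22.2% lower, against 21.5% of the array. At stage 3 relative to stage 1, 4 fell (44.4%, against 35.9% of the array) and 1 rose (11.1%, against 29.9%). Cit.29688.1.S1_s_at, an ATHB-7-like homeodomain-leucine zipper protein whose Arabidopsis relative is induced by ABA and drought, read 5.41 and 5.51 at stage 3 and 6.01 on both arrays of stage 2, against 8.26 and 8.28 at stage 1. It fell by 2.25 ± 0.042 at stage 2 (adjusted p = 4.4e-05) and by 2.81 ± 0.042 at stage 3 (adjusted p = 3.5e-06). Its stage 3 signals are just above the highest reporters of those arrays (5.37 and 5.25). Those of stage 2 lie between the highest reporter and the median of the Random controls. The true size of both falls is therefore uncertain. Cit.16099.1.S1_at, annotated as an armadillo repeat protein that interacts with ABF2, a factor that binds ABA-responsive promoters in Arabidopsis, fell by 1.85 ± 0.12 at stage 3 (adjusted p = 0.00020). These 2 were selected by the study. Cit.12765.1.S1_at, whose name begins with ABI3-i, rose by 0.66 ± 0.16 at stage 3 relative to stage 1 (adjusted p = 0.018). Without replicate 1 of stage 1 or replicate 2 of stage 3 this call was lost, at 0.50 (adjusted p = 0.067) and 0.59 (adjusted p = 0.083). The other ABI3-named probe sets differed by at most 0.51 in size.

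Another 9 probe sets have names that begin with abscisic or ABA and fit no other list. At stage 3 relative to stage 1, 4 rose (44.4%, against 29.9% of the array) and 5 fell (55.6%, against 35.9%), and at stage 2 relative to stage 1, 2 rose and 2 fell (22.2% each, against 20.2% and 21.5%). The largest rise was in Cit.13263.1.S1_s_at, annotated as HVA22-like, a protein family first known as ABA-induced in barley. It read 10.12 and 10.18 at stage 3, against 7.96 and 8.06 at stage 1 (2.14 ± 0.049, adjusted p = 8.0e-06), with no difference that passed the test at stage 2 (-0.04, adjusted p = 0.52). Cit.17514.1.S1_at rose by 1.21 ± 0.050 (adjusted p = 3.9e-05). The largest falls were 1.11 ± 0.035 in Cit.32512.1.S1_s_at (-1.11, adjusted p = 1.8e-05) and 0.77 ± 0.044 in Cit.15850.1.S1_at (-0.77, adjusted p = 0.00011).

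**Figure D4:**
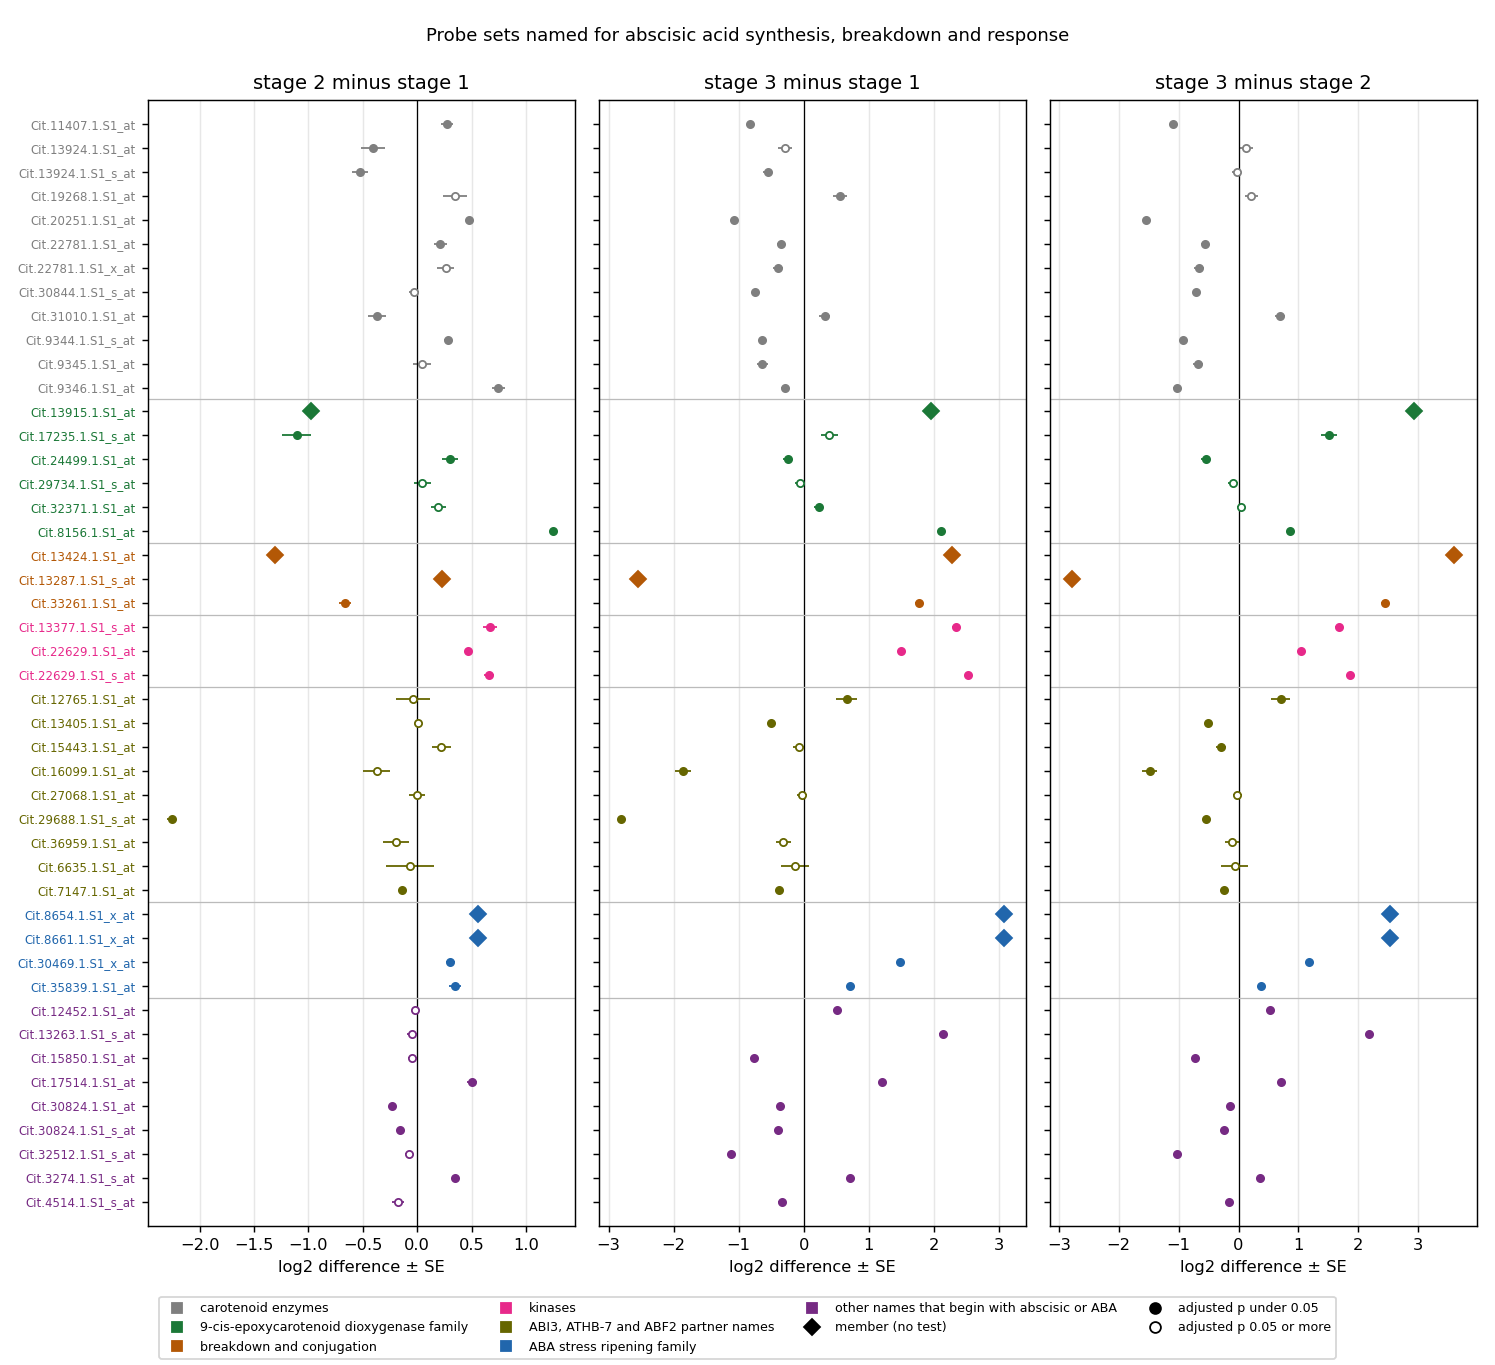
Log2 differences ± SE (horizontal axes) between stages 2 and 1, 3 and 1, and 3 and 2 for the 5 members (diamonds, not tested) and 41 other ABA-named probe sets (circles; filled at an adjusted p under 0.05), grouped by role down the page. At stage 3, 9 of 12 carotenoid enzyme probe sets lie left of 0 and are filled, whereas all 3 kinase probe sets and all 4 stress ripening probe sets lie right of it.

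Hydrophilic proteins of drying tissue, many of which respond to ABA, were counted at stage 3 relative to stage 1, where 29.9% of the array was higher and 35.9% lower. Of 16 dehydrin or COR15 probe sets, 5 rose (31.2%) and 7 fell (43.8%), with a median difference of -0.03. The largest rises were in Cit.8346.1.S1_s_at (1.54 at stage 3 relative to stage 1) and Cit.8210.1.S1_s_at (1.41 relative to stage 2), and the largest falls in Cit.8362.1.S1_s_at (-0.72 relative to stage 2) and Cit.22423.1.S1_x_at (-0.48 relative to stage 2). Of 34 late embryogenesis abundant (LEA) probe sets, 8 rose (23.5%) and 16 fell (47.1%). Cit.23585.1.S1_at, a desiccation protectant, and Cit.1861.1.S1_s_at, a LEA hydroxyproline-rich glycoprotein, rose by 4.40 and 3.32 at stage 3 relative to stage 2, while Cit.10895.1.S1_at and Cit.39178.1.S1_s_at, both annotated as seed maturation protein LEA 4, fell by 5.57 and 5.18 at stage 2 relative to stage 1. Cit.23585.1.S1_at, at 5.48 and 4.97, and Cit.10895.1.S1_at, at 5.09 on both arrays, were below the highest reporter at stage 2, so these 2 differences do not measure the size of the change. At that stage Cit.39178.1.S1_s_at read 5.72 on both arrays, close to the highest reporters (5.64 and 5.44), so the true size of its fall is uncertain.

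Under the heading of ABA, the study also lists 8 probe sets besides the 5, all selected on these arrays, so that their calls are no independent evidence. At stage 3 relative to stage 1, 5 rose (62.5%, against 29.9% of the array) and 3 fell (37.5%, against 35.9%). The rises were 2.34 in the SAPK3-like kinase Cit.13377.1.S1_s_at, 3.08 in a translocator protein homolog (Cit.9523.1.S1_s_at), 2.75 in a galacturonosyltransferase-like 9 (Cit.35345.1.S1_s_at), 2.59 in an annexin D4-like protein (Cit.12816.1.S1_s_at) and 2.03 in a myosin heavy chain (Cit.4865.1.S1_s_at). The falls were -3.46 in a WD repeat-containing protein (Cit.39560.1.S1_at) and -3.12 and -2.72 in the NAC4 probe sets Cit.10152.1.S1_s_at and Cit.22463.1.S1_s_at. At stage 2 the NAC4 probe sets read 4.35 and 4.34, and 5.13 and 5.20, which is below the highest reporter of each array, so the fitted differences of -4.78 and -4.54 from stage 1 do not measure the size of the fall.

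The patterns of the members were not confined to ABA genes. The order of NCED and hydroxylase 1-like, lower at stage 2 than at stage 1 and higher at stage 3 than at both, was called in all 3 comparisons for 5.01% of citrus probe sets. It was called for 7 of the 91 listed ones (7.69%) and for 5 of the 79 that the study did not select (6.33%). The order of the stress ripening probe sets, higher at each later stage, was called for 7.67%, for 12 of the 91 (13.2%) and for 8 of the 79 (10.1%). That of hydroxylase 2 was called for 5.08% and for 9 of the 91 (9.89%), none of them selected by the study. Of these 9, 6 are in the lists of 12 carotenoid enzyme and 5 NCED family probe sets. Whether these lists differ from the array in this was not tested. Among the 9, Cit.11407.1.S1_at, Cit.24499.1.S1_at, Cit.9346.1.S1_at and Cit.22423.1.S1_x_at each lost a call when 1 array was left out.

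By the Euclidean distance of the 2 differences from stage 1, over 1083 probe sets with an informative name, the probe set most like NCED was a vacuolar-processing enzyme (Cit.8595.1.S1_s_at, distance 0.0099 log2 units), followed by a RING1-like E3 ubiquitin ligase (Cit.11666.1.S1_s_at, 0.055) and a phosphatase family protein (Cit.2834.1.S1_s_at, 0.084). Hydroxylase 1-like was closest to an octicosapeptide/Phox/Bem1p family protein (Cit.2915.1.S1_s_at, 0.067), a CYSTM1 family protein (Cit.9029.1.S1_s_at, 0.12) and the LEA glycoprotein Cit.1861.1.S1_s_at (0.19). Closest to hydroxylase 2 were a chalcone isomerase (Cit.29390.1.S1_at, 0.067), an NADP-dependent glyceraldehyde-3-phosphate dehydrogenase (Cit.10919.1.S1_s_at, 0.18) and a CYPRO4-like protein (Cit.7073.1.S1_at, 0.18). The stress ripening probe sets were each other's nearest (0.0086). Next for both came an auxin-induced protein 5NG4-like (Cit.14663.1.S1_at, 0.11) and a lipid transfer protein (Cit.20130.1.S1_s_at, 0.12 and 0.13). Within 0.3 log2 units there were 13 named probe sets for NCED, 8 for hydroxylase 1-like, 18 for hydroxylase 2, and 27 and 26 for the stress ripening probe sets. These names come from genes selected on the same arrays, and the distances rest on 3 stages.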

How the data were processed

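Total RNA of shoot tips was hybridized to 6 Affymetrix Citrus arrays (3 stages, 2 arrays each). Per the methods, the authors made the deposited log2 signals by RMA in Expression Console (version 1.1), and they also name Microarray Suite (version 5.0). A second deposited table gives the log2 mean of each stage, which matches the mean of the 2 arrays within 7e-05, and p-values, ratios and fold changes of the authors' own comparisons, which were not used. Gene names come from that table's probe descriptions and from the study's annotation of its selected genes.

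The 224 probe sets that are not citrus genes were left out. limma 3.58.1 in R 4.3.3 (lmFit, contrasts, eBayes, no covariates) was fitted to all 6 arrays and 30171 probe sets, with Benjamini-Hochberg adjustment over all of them and calls at an adjusted p under 0.05. The fit was tested on simulated data. Significance analysis of microarrays, named in the methods, was not run, since 4 arrays allow few relabellings. No file gives detection calls, so precision rests on the 2 arrays per stage, and p-values measure only the spread between arrays. Tables and figures used Python 3.11.15.

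The 5 members and the lists were chosen with earlier results of these data known, and the lists were rewritten once the shortened names had been seen. Named were the 5 members, every probe set of a list of up to 6, otherwise the 2 largest called rises and falls over the 3 comparisons, the study's ABA list and the 3 nearest probe sets of each member. The labels number the replicates 1 and 2 at each stage without saying what a number shares. The replicate 1 minus replicate 2 differences correlated across probe sets between stages (0.56 for stages 1 and 2, 0.48 for 1 and 3, 0.46 for 2 and 3), so a fit with the number as a block was also made. Genome positions and sequences were not analysed here.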

Additional observations from a re-analysis of the deposited data

How the results depend on the processing

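The precision rests on 2 arrays per stage, and low signals cannot be separated from background. The 5 members and the synthesis minus breakdown values kept their direction under median centring, quantile normalization, the replicate block and the removal of each array. Some moved by more than the spread between replicates. With median centring, NCED gave -0.93 (stage 2 minus stage 1) and 2.89 (stage 3 minus stage 2), Cit.8654.1.S1_x_at 0.60 and 2.48, and Cit.8661.1.S1_x_at 0.61 (stage 2 minus stage 1). With quantile normalization, NCED gave -0.92 (stage 2 minus stage 1), Cit.8654.1.S1_x_at 3.16 (stage 3 minus stage 1) and 2.60 (stage 3 minus stage 2), and NCED minus hydroxylase 2 gave -1.16 (stage 2 minus stage 1) and 4.57 (stage 3 minus stage 1).

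Leaving out each array in turn gave 0.53 to 0.58 (stage 2 minus stage 1) and 2.50 to 2.55 (stage 3 minus stage 2) for Cit.8654.1.S1_x_at. NCED minus hydroxylase 1-like ranged over 0.22 to 0.45 (stage 2 minus stage 1) and -0.77 to -0.54 (stage 3 minus stage 2), and NCED minus hydroxylase 2 over 4.47 to 4.53 (stage 3 minus stage 1) and 5.68 to 5.74 (stage 3 minus stage 2). The count of all citrus probe sets lower at stage 2 than at stage 1, 6493, ranged from 4160 (without stage 1 replicate 2) to 5882, and was 4296 without stage 2 replicate 1.

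Stricter call rules lowered every count. With 2-fold and an adjusted p under 0.05, 229 citrus probe sets were higher and 346 lower at stage 2 than at stage 1, 2280 higher and 1834 lower at stage 3 than at stage 1, and 2154 higher and 1437 lower at stage 3 than at stage 2. For the 91 listed ABA probe sets the same counts were 1 and 6, 15 and 9, and 16 and 7. At 4-fold with the unadjusted p no higher than 0.001, all citrus probe sets gave 22 and 109, 653 and 376, and 565 and 286, and the list 0 and 3, 8 and 3, and 7 and 0 (limma). The study selected 12 of the 91 on these arrays with the same cutoffs of 4-fold and 0.001. These list counts are therefore no independent evidence. Among the other 79, differences ran from -1.32 to 0.74 (stage 2 minus stage 1) and -1.27 to 1.78 (stage 3 minus stage 1), short of 2 log2 units. The list calls of these 2 comparisons are thus all among the 12.

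The 180 calls of listed probe sets gave 2327 values under the other settings. None changed direction, and 130 lost the call. Among the named ones, Cit.11407.1.S1_at lost its stage 2 call without stage 2 replicate 1 (0.29) or replicate 2 (0.25). Cit.31010.1.S1_at lost its stage 2 call without the same arrays (-0.34 and -0.41). Its call at stage 3 relative to stage 1 was lost without stage 3 replicate 1 or 2 (0.36 and 0.29). Cit.9346.1.S1_at lost its call at stage 3 relative to stage 1 without stage 1 replicate 2 (-0.25). For Cit.22423.1.S1_x_at, the stage 2 call was lost without stage 1 replicate 1 or 2 (0.18 and 0.13) or stage 2 replicate 1 or 2 (0.13 and 0.18). The stage 2 call of Cit.23585.1.S1_at was lost without stage 1 replicate 1 or 2 (-0.73 and -0.88) or either array of stage 3 (-0.80). With the replicate block, 27 listed probe sets were higher and 29 lower at stage 2 than at stage 1, 31 and 46 at stage 3 than at stage 1, and 32 and 34 at stage 3 than at stage 2. The block ended the call of Cit.4514.1.S1_s_at at stage 3 relative to stage 2 and no other call among the 180. The 20 calls of the study's other ABA genes all held under the 260 values of the same settings. NCED minus the glucosyltransferase, a comparison added after seeing the data, kept its direction under the same scalings, the block and the removal of each array, and with quantile normalization gave -0.23 (stage 2 minus stage 1).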
